A study of Bos taurus with 48 samples.

Results

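The enzymes that break tryptophan down along the kynurenine pathway, and the enzyme that loads tryptophan onto its tRNA, were described in bovine endometrium on day 17 of the reproductive cycle. The 7 genes sought were IDO1 (named INDO on the array), TDO2, AFMID, KMO, KYNU, HAAO and WARS1 (named WARS on the array). A probe was a member where the gene name or the bracketed symbol of the array annotation equalled one of these symbols. This gave 6 probes for 6 genes among the 21475 probes of the array, and KMO had none by symbol. A KMO probe reached through its gene number and a probe described only as similar to kynureninase are given beside the members and were not counted with them. The probe for IDO2, the gene next to IDO1, was left out by the rule and is given with the other genes of the pathway.

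Tryptophan is an essential amino acid that a cell can build into protein or degrade. IDO1 and TDO2 open its indole ring, AFMID releases kynurenine from the product, and KMO, KYNU and HAAO carry kynurenine towards quinolinate and NAD. WARS1 charges tRNA with tryptophan for translation. IDO1 and WARS1 are known as genes that interferons induce, and the elongating ruminant conceptus signals its presence to the uterus by secreting interferon tau. Local tryptophan breakdown by IDO1 is known for restraining T lymphocytes where fetal and maternal tissues meet.

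The tissue came from 22 lactating Holstein Friesian dairy cows whose oestrous cycles had been synchronised, all slaughtered on day 17. On day 7, 12 of them had been given a blastocyst and were pregnant, and the other 10 were cyclic. Caruncular endometrium, the raised sites where the conceptus attaches, and the glandular intercaruncular endometrium between them were taken from each cow, which makes 44 samples. The labels divide the pregnant cows by embryo into 7 large (over 20 cm and 75 mg) and 5 small (under 20 cm and 40 mg), and by fertility class into 6 fertile and 6 sub-fertile, with 3 large embryos in fertile and 4 in sub-fertile cows. Each array carried the RNA of 1 sample in Cy5 and, in Cy3, a pool made of all the samples, and no dyes were swapped. Levels are given as the log2 ratio of sample to pool after the median of the array was subtracted, so that 0 is the typical ratio of that array. These are whole-tissue samples, in which more cells of a type and more RNA per cell cannot be told apart.

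The 48 arrays had 68.8 to 84.0% of spots well above background. For 4 cows the caruncular sample had a repeat array, and both arrays were averaged. Of the 12 slides, 9 held cows of 1 state only, and only cows Pregnant_9790 and Non-Pregnant_9786 had the single arrays of both tissues in the same scan batch. The arrays with the most flagged spots, 3267 and 2186, both held cyclic cow Non-Pregnant_9778. Cows are named by state and number as in the labels. The probe for the trophoblast interferon was detected in none of 44 samples and that for the placental lactogen in 1. Of 9 conceptus marker probes, 8 were detected in at most 2 samples, and 6 of these in none. The other probe, PTI, described on the array as a pancreatic trypsin inhibitor, was detected in all 44 samples and was not called with pregnancy. The labels give the fertility class by name only.

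Only the members that carried a signal could be compared. A sample counted as detected where a probe's Cy5 spots stood well above background with a signal of 80 units or more. Probes detected in 22 or more of the 44 samples were tested, which left 14690 probes and 3 of the 6 members: IDO1 and WARS1, detected in all 44 samples, and AFMID in 43. The kynureninase-like probe was detected in 21 samples and missed the filter by 1 sample. The sequences of the probes that the results turn on are printed 5′ to 3′ as the study lists them, with the probe for IDO2 beside that for its neighbour. No run of bases shared by any pair of these probes, on either strand, was longer than 7, and the IDO1 and IDO2 probes shared at most 6.
IDO1 (A_73_118680): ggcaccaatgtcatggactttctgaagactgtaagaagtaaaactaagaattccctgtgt
WARS1 (A_73_109216): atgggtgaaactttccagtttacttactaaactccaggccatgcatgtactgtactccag
kynureninase-like (A_73_105245): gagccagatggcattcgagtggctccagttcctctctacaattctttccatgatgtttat
IDO2 (A_73_104150): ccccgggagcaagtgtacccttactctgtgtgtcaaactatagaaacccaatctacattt

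The comparison of pregnant with cyclic cows asked which of these genes differ when a conceptus is present. IDO1 and WARS1 were higher in pregnant cows in both tissues and AFMID did not pass the test in either. The members called higher were thus 2 of 3 tested in each tissue, where 5.96% of all tested probes were called higher in caruncular and 4.25% in intercaruncular endometrium.

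IDO1, which takes the opening step of tryptophan breakdown, was at a log2 ratio of -2.59 in the lowest, 0.19 in the median and 2.05 in the highest caruncular sample of the 12 pregnant cows. In the 10 cyclic cows it was at -3.76, -3.29 and -1.83. All but 1 of the pregnant cows lay above every cyclic cow, and the exception was cow Pregnant_3807. The mean was 9.69-fold higher in pregnancy (log2 change 3.28, SE 0.46, limma adjusted p = 2.153e-05), the 36th highest change of the 14690 probes. In intercaruncular samples IDO1 was at -2.29, -0.50 and 1.93 in pregnant cows and at -3.39, -3.01 and -2.23 in cyclic cows. There 10 of 12 pregnant cows lay above every cyclic cow, and the mean was 5.70-fold higher (log2 change 2.51, SE 0.47, limma adjusted p = 0.0008102). The Cy5 signal behind these ratios was at least 545 units on average in every sample, and no spot of a member was saturated.

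The spread of IDO1 was much wider in pregnancy. The SD among pregnant cows was 1.44 in caruncular and 1.54 in intercaruncular tissue, and among cyclic cows it was 0.62 and 0.37. Repeat arrays of a sample differed by 0.15 to 0.45 in size, and those of WARS1 by 0.13 to 0.26.

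WARS1, the cytoplasmic tryptophanyl-tRNA synthetase, separated the states completely in both tissues. The caruncular log2 ratios were -0.97, 0.65 and 1.49 (lowest, median and highest) in the 12 pregnant cows and -1.60, -1.48 and -1.09 in the 10 cyclic cows. The intercaruncular ratios were -1.27, -0.27 and 1.10 in pregnant and -2.08, -1.66 and -1.45 in cyclic cows. Every pregnant cow was above every cyclic cow of the same tissue. The change was 3.76-fold in caruncular (log2 change 1.91, SE 0.24, limma adjusted p = 3.765e-06) and 2.42-fold in intercaruncular endometrium (log2 change 1.27, SE 0.23, limma adjusted p = 0.0005564). As for IDO1, pregnant cows differed more among themselves (SD 0.77 and 0.74) than cyclic cows did (SD 0.16 and 0.19).

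Both calls held with any single cow left out, in each tissue. They also held with the scan batch as a block and with the slide as a random block. In the scan batch fit, samples with a repeat array kept their averaged level and took the batch of their first array. Both calls were lost with the slide as a fixed block, which leaves only the slide of each tissue that held both states, with 3 pregnant cows and 1 cyclic cow. Within that slide the mean IDO1 difference was 2.46 in caruncular and 2.22 in intercaruncular tissue, and that of WARS1 was 1.36 and 1.00, on the log2 scale. A further slide held caruncular arrays of 2 pregnant cows and 1 cyclic cow, 2 of them repeat arrays, with differences of 4.46 for IDO1 and 2.01 for WARS1. All of these had the direction of the full comparison.

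**Figure D1:**
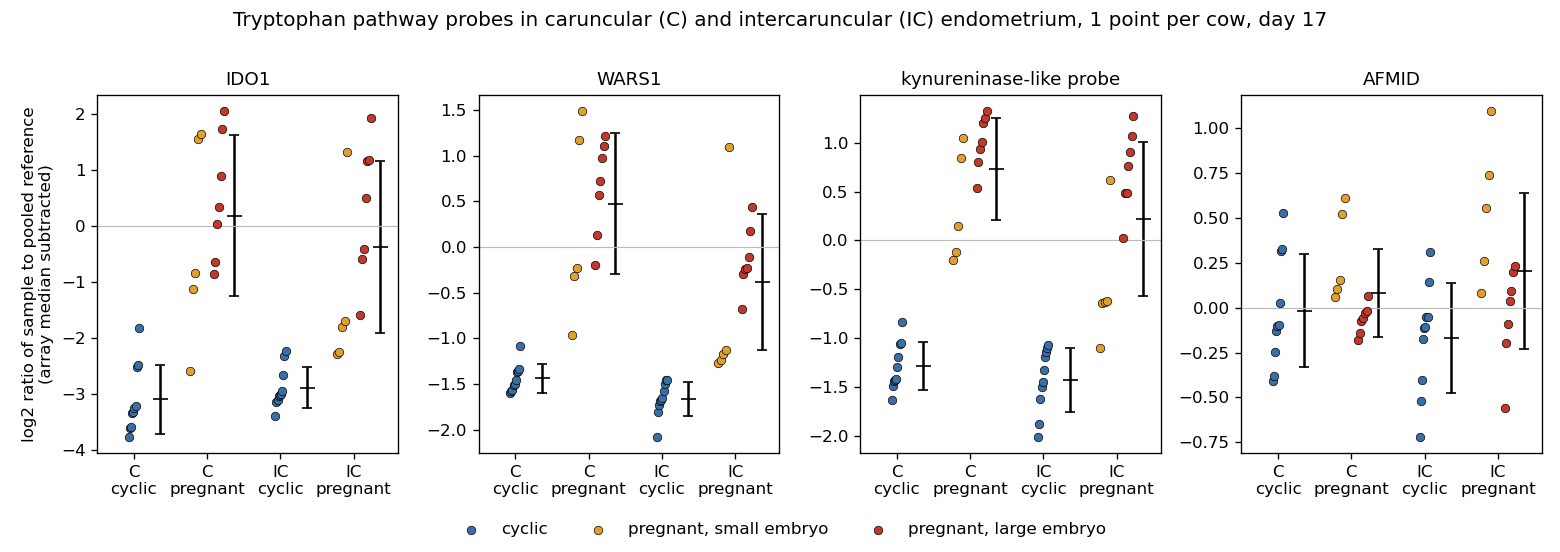
Log2 ratio of sample to pooled reference (vertical axis, array median subtracted) for IDO1, WARS1, the kynureninase-like probe and AFMID in caruncular (C) and intercaruncular (IC) endometrium, 1 point per cow, coloured by state and embryo size, with the mean and SD of each group beside the points. WARS1 separated the 12 pregnant from the 10 cyclic cows in both tissues, and 4 of the 5 cows with a small embryo lay below every cow with a large embryo for IDO1, WARS1 and the kynureninase-like probe in intercaruncular tissue.

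AFMID, the formamidase that makes kynurenine, overlapped between the states in both tissues. Its caruncular log2 ratios ran from -0.18 to 0.61 in pregnant and from -0.41 to 0.53 in cyclic cows, a mean difference of 0.10 (95% confidence interval -0.14 to 0.34, limma adjusted p = 0.5565). In intercaruncular tissue the ranges were -0.56 to 1.10 and -0.72 to 0.31, with a mean difference of 0.37 (0.05 to 0.70, limma adjusted p = 0.09739).

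The remaining members gave almost no signal. TDO2, which like IDO1 opens the indole ring and is best known from liver, was well above background in 2 of 44 samples, both from cyclic cows, and its median Cy5 signal was 12.0 units. HAAO, the oxygenase that leads to quinolinate, was well above background in none. The symbol-matched KYNU probe was so in 9 samples with a median signal of 16.7 units, and reached the limit of 80 units in none. The KMO probe, for the hydroxylase between kynurenine and the KYNU step, was well above background in 1 sample. No level is compared for these 4 genes, and TDO2, KYNU and HAAO make up the 3 members that were not tested.

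A probe described only as similar to kynureninase gave a signal. This kynureninase-like probe was well above background in 12 of 12 pregnant and 5 of 10 cyclic caruncular samples, and in 11 of 12 pregnant and 1 of 10 cyclic intercaruncular samples. Its caruncular log2 ratios were -0.19, 0.89 and 1.32 in pregnant cows (lowest, median and highest) and -1.63, -1.35 and -0.83 in cyclic cows. In intercaruncular tissue they were -1.10, 0.48 and 1.27 against -2.01, -1.38 and -1.07. All 12 pregnant cows were above every cyclic cow in caruncular tissue and 11 of 12 in intercaruncular tissue. Most cyclic intercaruncular samples and 5 of the 10 cyclic caruncular ones were not well above background, and the probe missed the filter, so no fold or test is given for it here. Which transcript it measures cannot be settled, since its gene number is in no table used.

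The 2 tissues of a cow were then compared. The SE, intervals and p-values are from fits that treat the tissues of a cow as unpaired, except where a cow block is named. Among pregnant cows WARS1 was higher in caruncular than in intercaruncular endometrium in 12 of 12 cows, by 1.81-fold (log2 difference 0.86, SE 0.29, limma adjusted p = 0.01837), and it was the only member called of 3 tested, where 8.86% of tested probes were called higher. Fitted with each cow as its own replicate block, the same difference had an adjusted p of 0.0002154. The call was lost without cow Pregnant_932 (0.73, adjusted p = 0.05536), with the slide as a random block (adjusted p = 0.06202), and with the slide or the scan batch as a fixed block (0.43, adjusted p = 1), since only cow Pregnant_9790 had both tissues on a single slide and in a single scan batch. For the other cows tissue and scan batch cannot be told apart. IDO1 was at a higher level in caruncular tissue in 9 of 12 pregnant cows, with a mean difference of 0.56 on the log2 scale (95% confidence interval -0.63 to 1.75, limma adjusted p = 0.4403). Markers of cell types differed as well. In pregnant cows all 6 stromal markers were called higher in caruncular tissue. Of 6 epithelial markers 5 were called lower there, while CDH1 was higher. Among all 14690 tested probes 2481 were called in either direction, and 3 with the scan batch as a block. The part of cell make-up in the WARS1 difference was not tested.

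In cyclic cows no member was called between the tissues, where 11.8% of tested probes were. With the scan batch as a block 11 of 14690 probes were called, against 1736 without it. Only cow Non-Pregnant_9786 had both tissues in a single scan batch. For the other cyclic cows tissue and scan batch cannot be told apart. WARS1 was higher in caruncular tissue in 9 of 10 cyclic cows, by 1.17-fold (log2 difference 0.22, SE 0.08, limma adjusted p = 0.041), which is under the 1.5-fold limit. IDO1 was at -0.21 (95% confidence interval -0.65 to 0.24, limma adjusted p = 0.4874), lower in caruncular tissue in 8 of 10 cyclic cows. As in pregnant cows, this fit did not pair the tissues of a cow. Within cows the IDO1 difference had an SD of 0.28 and ran from -0.49 to 0.40.

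The change with pregnancy was larger in caruncular tissue for both genes, but the difference in response did not pass its test. The interaction of state and tissue was 0.77 for IDO1 (95% confidence interval -0.60 to 2.13, limma adjusted p = 0.9228) and 0.64 for WARS1 (-0.05 to 1.32, limma adjusted p = 0.7195). None of the 3 members reached an unadjusted p under 0.05 here, and 0.0204% of all tested probes were called. Blocking by cow gave an adjusted p of 0.266 for IDO1 and 0.07632 for WARS1, and no member was called.

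Embryo size was compared among the 12 pregnant cows. In intercaruncular tissue IDO1 was at -2.29, -2.24, -1.81, -1.69 and 1.32 in the 5 cows with a small embryo, and at -1.59, 0.50 and 1.93 (lowest, median and highest) in the 7 with a large embryo. WARS1 was at -1.27, -1.24, -1.17, -1.12 and 1.10 with a small embryo, and at -0.68, -0.23 and 0.44 with a large one. For both genes 4 of the 5 cows with a small embryo lay below every cow with a large embryo, and the fifth, cow Pregnant_3956, lay far above the other 4.

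These differences did not pass the test across all probes. IDO1 was 3.15-fold higher with a large embryo (log2 difference 1.66, SE 0.71, unadjusted p = 0.0367, limma adjusted p = 0.1971), the 14th highest difference of the 14690 probes, and WARS1 1.52-fold higher (0.61, SE 0.37, limma adjusted p = 0.3768). AFMID lay the other way, at 0.08 to 1.10 with a small and -0.56 to 0.23 with a large embryo, and 4 of the 5 cows with a small embryo were above every cow with a large one (log2 difference -0.59, SE 0.18, limma adjusted p = 0.09008). No member was called, where 3.72% of tested probes were, and 2 of the 3 members had an unadjusted p under 0.05.

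With all 12 cows no member was called, and whether any was called depended on single cows. Without cow Pregnant_3956 all 3 members were called, with a log2 difference of 2.32 for IDO1 (limma adjusted p = 0.04412) and 1.07 for WARS1 (limma adjusted p = 0.01407). In that fit 659 of 14689 tested probes were called. Without cow Pregnant_9790, which is the same as the scan batch as a block, only AFMID was called (-0.63, limma adjusted p = 0.04863). That fit called 1888 of 14690 tested probes. The kynureninase-like probe was at -1.10, -0.64, -0.63, -0.62 and 0.62 with a small embryo and at 0.02, 0.76 and 1.27 (lowest, median and highest) with a large one, so that again 4 of 5 lay below every cow with a large embryo. In the fit without a filter this difference was 1.19 on the log2 scale (SE 0.28, limma adjusted p = 0.06572) and was not called.

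The same 4 cows with a small embryo were low outside the members. Over the 623 other probes called higher with pregnancy in intercaruncular tissue, the median difference from the cyclic mean was 0.48, 0.51, 0.60, 0.61 and 0.96 in the cows with a small embryo, with cow Pregnant_3956 the highest, and 0.92 to 1.29 in those with a large one. These probes were chosen by a comparison that includes the same cows, so the values are a description. Of the 15 genes of the kynurenine branches and NAD synthesis, 2 were called, against the 3.72% of all tested probes: GOT2 (log2 difference 0.40, SE 0.07, limma adjusted p = 0.02162) and NMNAT1 (0.40, SE 0.10, limma adjusted p = 0.04171), which act in kynurenic acid and NAD synthesis, were higher with a large embryo. Of 18 tested tRNA synthetases, 2 were higher, GARS1 (0.45, SE 0.10, limma adjusted p = 0.03491) and YARS1 (0.67, SE 0.17, limma adjusted p = 0.04596). These calls depended on single cows. When each of the 12 cows was left out in turn, GOT2 was called 9 times, GARS1 5 times and NMNAT1 and YARS1 2 times each, and without the filter on signal GOT2 was the 1 of the 4 still called.

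The caruncular samples showed the same cows in another order. IDO1 was at -2.59, -1.12, -0.85, 1.56 and 1.65 with a small embryo, the last 2 values being those of cows Pregnant_3956 and Pregnant_932, and at -0.85, 0.34 and 2.05 (lowest, median and highest) with a large one. WARS1 was at -0.97, -0.32, -0.23, 1.17 and 1.49 with a small and at -0.20, 0.72 and 1.22 with a large embryo. The groups overlapped for both, with log2 differences of 0.78 (95% confidence interval -0.87 to 2.42) and 0.42 (-0.47 to 1.31), each at a limma adjusted p of 0.9027. The kynureninase-like probe overlapped too, with 3 of the 5 cows with a small embryo below every cow with a large one (log2 difference 0.66, SE 0.23, limma adjusted p = 0.6756 without a filter). AFMID differed by -0.35 (SE 0.11, unadjusted p = 0.006099, limma adjusted p = 0.5995). No member was called by limma, 1 had an unadjusted p under 0.05, and 0% of tested probes were called, although 7.05% had an unadjusted p under 0.05.

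The fertility class gave no call for a member in either tissue. Caruncular IDO1 was at -1.12, 0.04, 1.56, 1.65, 1.73 and 2.05 in the 6 fertile and at -2.59, -0.85, -0.85, -0.65, 0.34 and 0.90 in the 6 sub-fertile cows, groups that overlapped (log2 difference 1.60, SE 0.64, unadjusted p = 0.02645, limma adjusted p = 0.3213). Caruncular WARS1 differed by 0.77 (95% confidence interval -0.02 to 1.55, limma adjusted p = 0.3767). IDO2 differed by 0.95 (SE 0.29, limma adjusted p = 0.2792). Of all tested probes 0% were called there and 13.6% had an unadjusted p under 0.05. In intercaruncular tissue the differences were 0.72 for IDO1 (-1.03 to 2.47, limma adjusted p = 0.7121) and 0.50 for WARS1 (-0.32 to 1.33, limma adjusted p = 0.5724). No member had an unadjusted p under 0.05 there, and 0.0477% of tested probes were called. Repeat arrays aside, a single slide of each tissue held both classes: fertile cows Pregnant_932 and Pregnant_9246 and sub-fertile cows Pregnant_3805 and Pregnant_977. With the slide as a fixed block, which rests on these cows, the intercaruncular differences turned to -1.80 and -0.47, and neither passed the test. On the caruncular slide IDO1 was at 1.65 and -1.12 in the fertile and at 0.34 and -0.85 in the sub-fertile cows, which overlapped. For the other cows fertility class and slide cannot be told apart.

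The levels of IDO1 and WARS1 went together from cow to cow. Across the 12 pregnant cows Pearson's r between them was 0.95 in caruncular (Spearman's rho 0.85) and 0.86 in intercaruncular tissue (rho 0.92), with permutation p of 2e-05 and 0.00031 and adjusted p of 0.00018 and 0.00148 over the 18 relations computed. Without the 2 cows farthest from the median of IDO1 the values were 0.93 and 0.87, and over the 11 cows of the main scan batch they were 0.95 and 0.90. Within the 7 cows with a large embryo r was 0.86 and 0.70. For rho the permutation p was 0.00109 and 0.00013, with adjusted p of 0.00461 and 0.00117.

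In the 10 cyclic cows the relation was present in caruncular tissue and not detectable in intercaruncular tissue. Caruncular r was 0.87 (permutation p = 0.00225, adjusted p = 0.00579) and rho 0.72 (permutation p = 0.0229, adjusted p = 0.0411), but r fell to 0.62 without cows Non-Pregnant_1940 and Non-Pregnant_3811, so that it leans on them. Intercaruncular r was 0.26 (permutation p = 0.472, adjusted p = 0.521) and rho 0.27 (permutation p = 0.45, adjusted p = 0.591). Over the 9 cyclic cows of the main scan batch r was 0.86 and 0.30.

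The kynureninase-like probe followed them in pregnancy. Its r with IDO1 was 0.78 in caruncular and 0.89 in intercaruncular tissue of the pregnant cows (permutation p = 0.00213 and 0.00033, adjusted p = 0.00579 and 0.00148), with rho of 0.71 and 0.87 (adjusted p = 0.0311 and 0.0018). Without the 2 cows farthest in IDO1 r was 0.64 and 0.90. With WARS1 it was 0.81 and 0.77 (adjusted p = 0.00554 and 0.00634), with rho of 0.66 and 0.81 (adjusted p = 0.0411 and 0.00639), and 0.62 and 0.86 without the 2 cows farthest in WARS1. Over the main scan batch these 4 values of r were 0.78, 0.90, 0.81 and 0.78. Within the 7 cows with a large embryo they were 0.53, 0.79, 0.53 and 0.43. In cyclic cows, where this probe was near background, r with either gene was between 0.16 and 0.36 and none of the 4 relations passed. Over the 9 cyclic cows of the main scan batch, however, caruncular r was 0.85 with IDO1 and 0.64 with WARS1, and intercaruncular r 0.42 and 0.38.

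**Figure D2:**
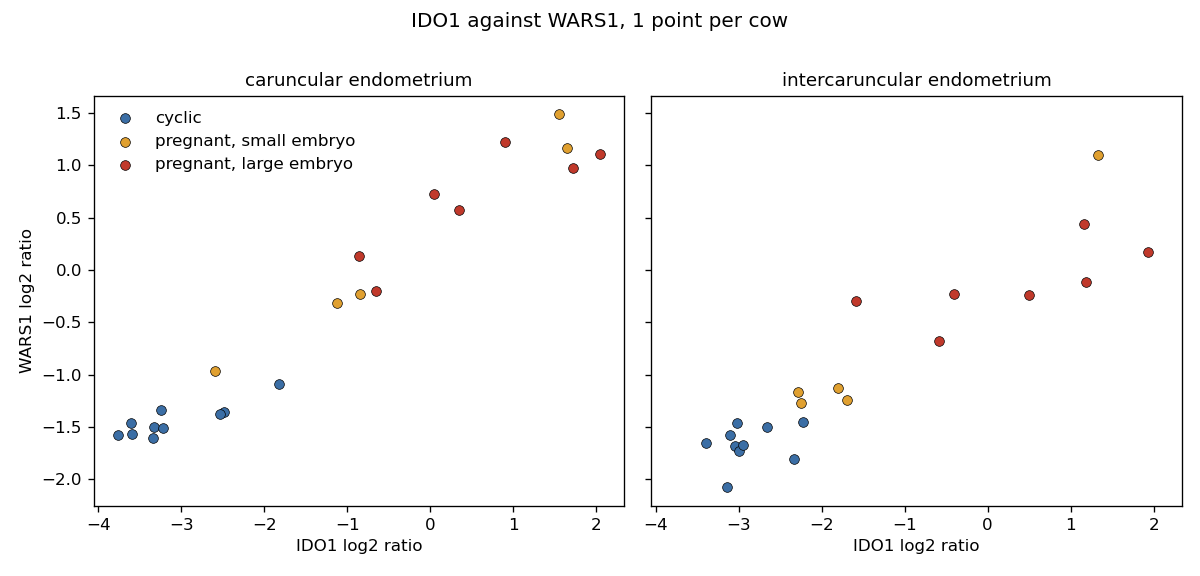
Log2 ratio of WARS1 (vertical axis) against that of IDO1 (horizontal axis) in caruncular and intercaruncular endometrium, 1 point per cow, coloured by state and embryo size. Pregnant cows spread along a line in both tissues, with r of 0.95 and 0.86 over 12 cows, while the 10 cyclic cows sit together at the low end.

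The level in one tissue of a cow also went with that in its other tissue. For IDO1 this r was 0.96 in the 10 cyclic cows (permutation p = 1e-05, the smallest that 100000 resamples can give, adjusted p = 0.00018, rho 0.99) and 0.69 in the 12 pregnant cows (permutation p = 0.0146, adjusted p = 0.024, rho 0.63 with adjusted p = 0.0525). Without cows Pregnant_926 and Pregnant_3807, the farthest from the caruncular median, the pregnant value was 0.53. Without cows Non-Pregnant_9786 and Pregnant_9790, of a separate scan batch, the values were 0.96 in cyclic and 0.68 in pregnant cows. The tissues of each remaining cow were in different scan batches, so these values do not hold the batch constant. For WARS1 the pregnant value was 0.72 (permutation p = 0.00922, adjusted p = 0.0166, rho 0.68) and the cyclic value 0.23 (permutation p = 0.492, adjusted p = 0.521, rho 0.13). For the kynureninase-like probe they were 0.79 (permutation p = 0.0026, adjusted p = 0.00585, rho 0.84) and 0.54 (permutation p = 0.104, adjusted p = 0.155, rho 0.48).

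Cow Pregnant_932, fertile and with a small embryo, stood apart in this relation. Its IDO1 was at 1.65 in caruncular and -2.29 in intercaruncular tissue, its WARS1 at 1.17 and -1.17, and its kynureninase-like probe at 0.84 and -1.10. For IDO1 and the kynureninase-like probe the intercaruncular value was the lowest of the 12 pregnant cows, while the caruncular IDO1 value was among the highest. Without cow Pregnant_932 the pregnant r between tissues was 0.94 for IDO1, 0.90 for WARS1 and 0.98 for the kynureninase-like probe. Other probes showed the same split. Over the 872 other probes called higher in caruncular pregnancy the median difference of this cow from the cyclic mean was 1.31, the highest of the 12 pregnant cows (range 0.56 to 1.31). Over the 623 other probes called higher in intercaruncular pregnancy it was 0.51, the second lowest (range 0.48 to 1.29). Both sets of probes were chosen by comparisons that include this cow, and they differ between the tissues, so these values are a description.

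**Figure D3:**
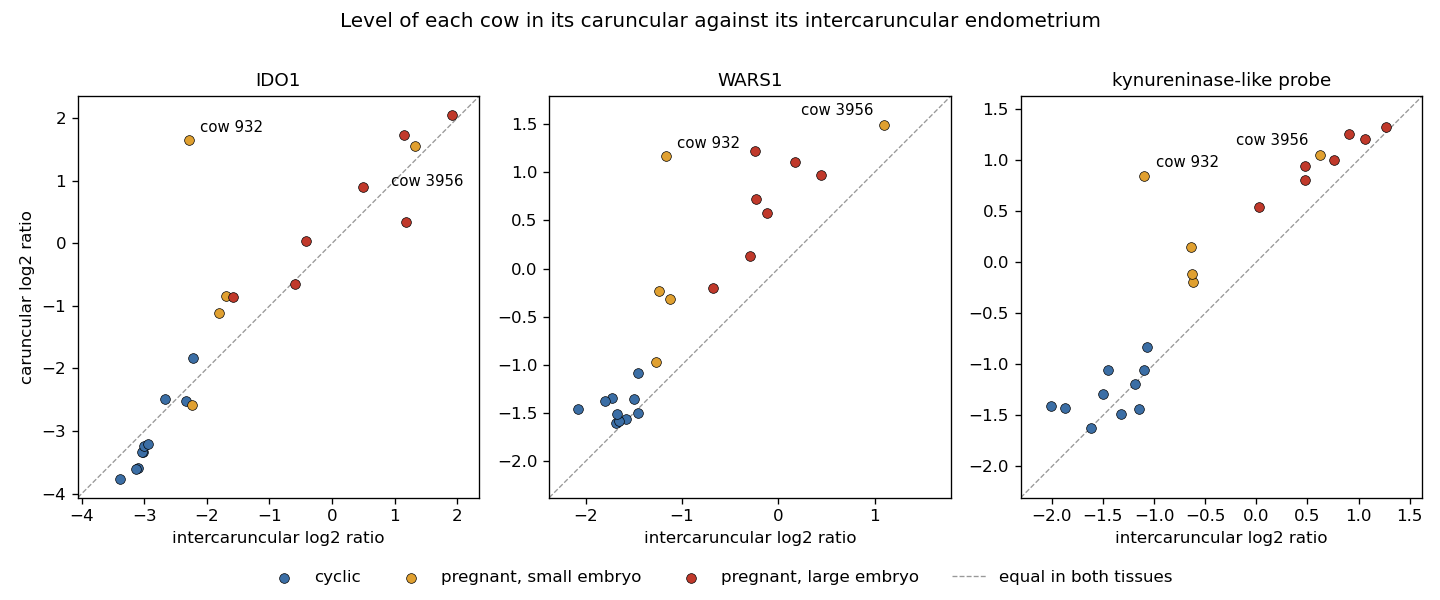
Log2 ratio in caruncular (vertical axis) against intercaruncular endometrium (horizontal axis) of the same cow for IDO1, WARS1 and the kynureninase-like probe, with a dashed line where both are equal. Cow Pregnant_932 lies 3.94 above the line for IDO1 and 2.34 above it for WARS1, and all 12 pregnant cows lie above the line for WARS1.

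Around the members, the other genes of tryptophan and NAD metabolism changed in few places. Of 15 genes of the kynurenine branches and NAD synthesis, all tested, 2 were higher and 13 not called in each tissue, with a median change of 0.01 in caruncular and 0.08 in intercaruncular tissue, against -0.03 and 0.00 over all tested probes. For comparison, 9.97% and 7.17% of all tested probes were called in either direction. NAMPT, which makes NAD from nicotinamide and not from tryptophan, rose in both tissues (log2 change 1.15, SE 0.13, limma adjusted p = 1.314e-06 in caruncular and 0.63, SE 0.11, limma adjusted p = 0.0005715 in intercaruncular). QPRT, which turns quinolinate into a NAD precursor, rose in intercaruncular tissue (0.71, SE 0.15, limma adjusted p = 0.002422) and was at 0.44 in caruncular tissue (SE 0.18, limma adjusted p = 0.06943).

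IDO2, the neighbour and paralogue of IDO1, rose in caruncular endometrium by 1.83-fold (log2 change 0.88, SE 0.26, limma adjusted p = 0.01519). Its intercaruncular difference was 0.21 (95% confidence interval -0.42 to 0.85, limma adjusted p = 0.6597), and the interaction of state and tissue was 0.66 (limma adjusted p = 0.8116). It was lower in caruncular than in intercaruncular tissue in all 10 cyclic cows, by 2.35-fold (log2 difference -1.23, SE 0.28, limma adjusted p = 0.002512). The difference was -1.74 in cow Non-Pregnant_9786, the only cyclic cow with both tissues in a single scan batch. For the other cyclic cows tissue and scan batch cannot be told apart. The enzymes that turn kynurenine into kynurenic acid (KYAT1, KYAT3, AADAT and GOT2) were not called in either tissue.

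**Figure D4:**
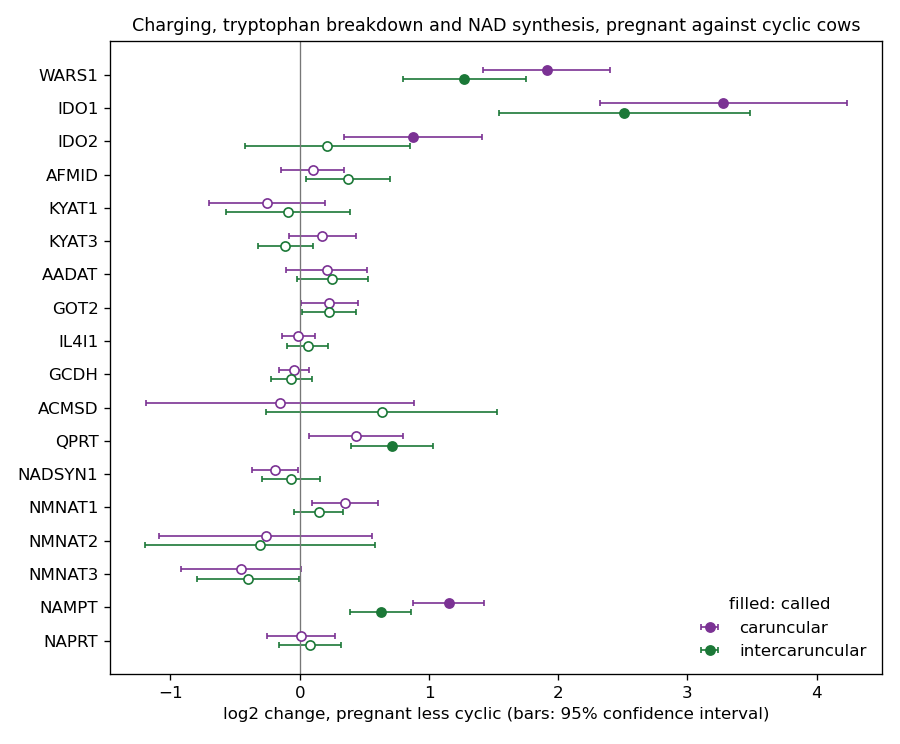
Log2 change of pregnant less cyclic cows (horizontal axis, with the 95% confidence interval as bars) for WARS1, IDO1, AFMID and 15 other genes of the kynurenine branches and NAD synthesis in caruncular and intercaruncular endometrium; filled points were called at 1.5-fold and an adjusted p under 0.05. The intervals of IDO1 and WARS1 lie wholly above 0 in both tissues, and of the 15 other genes NAMPT is called in both, IDO2 in caruncular and QPRT in intercaruncular tissue.

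The other uses of tryptophan showed a few calls in caruncular tissue. Of 5 tested genes of serotonin and tryptamine metabolism 2 were called, where 9.97% of all tested probes were, and of 6 tested transporters of tryptophan and other large neutral amino acids also 2. Of the first, DDC (0.73, SE 0.22, limma adjusted p = 0.01754) and MAOB (0.73, SE 0.21, limma adjusted p = 0.01339) were higher in pregnancy in caruncular tissue, and none was called in intercaruncular tissue (7.17% of all tested probes), where DDC was at 0.10 and MAOB at 0.41. Of the transporters, SLC7A5 (-0.63, SE 0.18, limma adjusted p = 0.01064) and SLC7A8 (-0.68, SE 0.22, limma adjusted p = 0.02716) were lower in caruncular tissue. In intercaruncular tissue SLC7A5 was at -0.62 (limma adjusted p = 0.05363) and SLC7A8 at 0.10, and none was called. Whether the response of a listed gene differed between the tissues was tested by the interaction of state and tissue. None was called without a block or with the cow as a fixed block. With the cow as a random block 432 of 14690 tested probes were called. Among them the response was larger in caruncular tissue for NAMPT (0.53, limma adjusted p = 0.03211), CD86 (0.46, limma adjusted p = 0.03026) and FCER1G (0.73, limma adjusted p = 0.04122), and CYP1A1 was also called (-1.31, limma adjusted p = 0.0389).

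The other tRNA synthetases were set beside WARS1. Of 18 tested enzymes that charge tRNA with other amino acids, only YARS1 was called, higher by 1.53-fold in caruncular (log2 change 0.61, SE 0.12, limma adjusted p = 0.00108) and by 1.57-fold in intercaruncular tissue (0.65, SE 0.16, limma adjusted p = 0.005284). For comparison, 9.97% of all tested probes were called in caruncular and 7.17% in intercaruncular tissue, in either direction. The median change of the 18 was 0.06 and 0.08. The WARS1 change was thus above that of every other synthetase tested in both tissues.

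Genes that sense kynurenine or a shortage of amino acids were mixed. Of the 14 tested, 3 were called higher in caruncular and 2 in intercaruncular tissue. Over all tested probes 5.96% and 4.25% were called higher. Of 14 tested, TIPARP, a target of the aryl hydrocarbon receptor, was higher in both tissues (log2 change 1.38, SE 0.25, limma adjusted p = 0.0004279 and 1.14, SE 0.21, limma adjusted p = 0.0005413). ATF3 was higher in both as well (1.23, SE 0.25, limma adjusted p = 0.0009885 and 1.20, SE 0.22, limma adjusted p = 0.0007071), and SESN2 in caruncular tissue (1.04, SE 0.22, limma adjusted p = 0.001519, against 0.56 in intercaruncular tissue, under the fold limit). The receptor AHR, its targets CYP1A1 and CYP1B1, and ATF4, ASNS, TRIB3, CHAC1 and DDIT3 of the amino acid response were not called in either tissue, and those of them that passed the adjusted p (AHR, TRIB3 and DDIT3) changed by less than 1.5-fold. In caruncular tissue AHR was lower in pregnancy (-0.32, limma adjusted p = 0.03059). TRIB3 (0.43, limma adjusted p = 0.02736) and DDIT3 (0.25, limma adjusted p = 0.03415) were higher there. The medians over the 14 were 0.17 and 0.20.

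The genes whose levels were most like those of the members over the 44 samples were, for IDO1, NOD27 (r = 0.97), TNFSF13B (0.96) and DNAPTP6 (0.95), named as on the array. NOD27 is an older name of NLRC5, a regulator of MHC class I genes, and TNFSF13B is a B cell survival factor. For WARS1 they were SLC15A3 (0.97), a peptide and histidine transporter, CXCL10 (0.96), a chemokine that interferons induce, and PTPRE (0.95), a tyrosine phosphatase. With the mean of each of the 4 groups removed, the closest were NOD27, CXCL11 and CXCL10 for IDO1 (each r = 0.91) and SLC15A3 (0.92), NOD27 and UBE1L (each 0.91) for WARS1. WARS1 was the sixth in that order for IDO1 (0.88) among 14352 probes compared. These correlations are a description over samples that share cows, slides and the reference.

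Some markers of leukocytes were higher in pregnancy, where 5.96% of all tested probes were called higher in caruncular and 4.25% in intercaruncular tissue. Of 10 macrophage and monocyte markers, 5 were higher in caruncular (AIF1, CD86, CSF1R, FCER1G and MRC1) and 3 in intercaruncular tissue (AIF1, CSF1R and LYZ), and the mean log2 ratio of the 10 ran from -0.27 to 0.77 in pregnant and from -0.88 to 0.13 in cyclic caruncular samples. In intercaruncular samples it ran from -0.44 to 0.57 and from -0.64 to -0.19. Of 6 tested dendritic cell markers CCR7, CLEC9A and LAMP3 were higher in both tissues, with a mean of -0.10 to 0.99 against -1.06 to -0.23 in caruncular and -0.84 to 0.70 against -1.01 to -0.15 in intercaruncular tissue. Of 7 tested T and NK cell markers, 2 (KLRB1 and NKG7) were higher in caruncular and 1 (KLRB1) in intercaruncular tissue. Among markers of the tissue itself, CDH1 was higher and KRT18 and KRT19 lower in caruncular tissue and CDH1 higher in intercaruncular tissue, of 6 epithelial markers. Of 6 stromal markers PDGFRA was higher and COL3A1 lower in caruncular tissue, and COL1A1, COL1A2 and COL3A1 were lower in intercaruncular tissue. PECAM1, of 4 endothelial markers, and ESR1, of 5 endometrial markers, were lower in both. Between large and small embryos no leukocyte marker was called in either tissue, although in intercaruncular tissue the median difference of the macrophage and monocyte markers was 0.39 and of the dendritic cell markers 0.45, against -0.01 over all tested probes. With the scan batch as a block CSF1R, FCER1G, CLEC9A, CCR7, NKG7 and KLRB1 were called higher there with a large embryo. That fit called 1888 of 14690 tested probes, against 547 without the block. Of the other listed genes it also called KRT8, CYP1B1, ATF3, TRIB3 and SESN2 higher, and MAOA, COL1A2, VWF, CDH5 and ESR1 lower. When the fit took the slide as a fixed block, KLRB1 was the leukocyte marker called, among 1071 probes in all. COL3A1 (-0.92, SE 0.23, limma adjusted p = 0.04986), of the stromal markers, and PECAM1 (-0.93, SE 0.22, limma adjusted p = 0.04001), of the endothelial ones, were lower with a large embryo in that tissue, and kept the call in 3 and 2 of the 12 fits that each left out 1 cow. The part of these cells in the levels of IDO1 and WARS1 was not tested.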

How the data were processed

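The authors extracted spot intensities with Agilent Feature Extraction (version 9.5.3.1 per the file headers), which subtracted background and normalized the dyes by LOWESS. The deposited log10 ratio of Cy5 sample to Cy3 pool was taken to log2, without flagged spots and spots with both channels at a surrogate value, averaged over spots, centred on the array median and averaged over a sample's arrays. The deposited log2 value table holds uncentred ratios from the authors' software. Of its 857040 values, 1582, on 8 of the 48 arrays, differed from the scanner ratios by more than 0.001, the largest by 1.33. Members and gene lists were chosen with earlier results of these data known.

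Comparisons used limma 3.58.1 in R 4.3.3 with Benjamini-Hochberg adjustment over 14690 probes, and were tested on simulated data. Pregnancy and tissue were called at 1.5-fold and an adjusted p under 0.05, the rest at the adjusted p alone. A listed gene was read from its brightest probe, and those called in a pregnancy comparison were named, with the genes most like IDO1 and WARS1. Correlations used two-sided permutation tests of 100000 resamples. In scan batch fits and in correlations over the main scan batch, a sample with a repeat array counted under the batch of its first array. Its level was still the average of both arrays, so the batch was not fully held constant there. As the symbol-matched KYNU probe was near background, the kynureninase-like probe stood in for it in the correlations, a choice made after the data were seen, as were leaving out cow Pregnant_932 between tissues and reading the alternatives for the listed genes. Both tissues of a cow share an animal: their deviations from the group means correlated in all 22 cows (0.11 to 0.87, median 0.61). The number of arrays limits the precision. Alternatives were loess after normexp (offset 50), uncentred ratios, all probes, probes detected in 33 of 44 samples, the deposited table, single arrays, slide, scan and cow blocks, the methods' t-test, 1 fit of all groups, the other label as a covariate and each cow left out.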

Additional observations from a re-analysis of the deposited data

Results flagged for a closer look

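Within groups of 5 to 10 cows, a cow was marked where its gap to the nearest other cow took up more of the range of the group than Dixon's 95% limit allows. Of 60 groups examined 12 had such a cow, where chance gives about 1 in 20, and the groups overlap, since embryo size and fertility class divide the same pregnant cows.

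Cow Pregnant_3956, fertile and with a small embryo, was the highest of the 5 cows with a small embryo in intercaruncular tissue for IDO1 (1.32, next -1.69), WARS1 (1.10, next -1.12) and the kynureninase-like probe (0.62, next -0.62). Its sample shared a slide with 3 cows with a large embryo.

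Cow Pregnant_932 had the largest caruncular less intercaruncular difference among the cows with a small embryo for IDO1 (3.94, next 0.84) and the kynureninase-like probe (1.94, next 0.79). Among the 6 fertile cows the same held for IDO1 (3.94, next 0.69), WARS1 (2.34, next 0.95) and the kynureninase-like probe (1.94, next 0.51).

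Cow Pregnant_9246 was the lowest of the 6 fertile cows in caruncular tissue for the kynureninase-like probe (-0.12, next 0.84) and the highest for AFMID (0.61, next 0.10). Among the 10 cyclic cows, cow Non-Pregnant_3811 was the highest in caruncular WARS1 (-1.09, next -1.34), and cow Non-Pregnant_9960 had the largest difference between tissues in AFMID (1.25, next 0.39).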

How the results depend on the processing

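Of 746 values that 50 results took under the alternatives, 723 kept their direction and their side of the threshold, and 3 changed direction. With the slide as a fixed block, 0 of the 3 tested members were called with pregnancy in either tissue (47 probes in all in caruncular and 127 in intercaruncular tissue, against 1465 and 1054), although IDO1 stayed at 2.46 and 2.22 and WARS1 at 1.36 and 1.00. IDO2 became 1.10 (adjusted p = 0.6126) in caruncular and -0.32 in intercaruncular tissue, and the intercaruncular fertility differences became -1.80 for IDO1 and -0.47 for WARS1, none of them called. These fits use only the slides that hold both groups. With the slide as a random block IDO1 and WARS1 kept their calls, and 643 probes were called in intercaruncular tissue.

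Between tissues of pregnant cows the WARS1 call was lost, leaving 0 members, with the scan batch, with either slide block, and without cow Pregnant_932, an alternative chosen after seeing the data. Over all probes the scan batch left 3 calls and the fixed slide block 0, against 2481, and in cyclic cows 11, 0 and, with the slide as a random block, 794, against 1736. As a replicate block, paired by animal, the cow left the WARS1 difference at 0.86 (adjusted p = 0.0002154 as a fixed and 0.0007757 as a random block), changed no call of a member, and raised the calls of the interaction from 3 to 150 as a fixed and 432 as a random block. That count was 10 without the filter, 7 with the scan batch and 0 with the slide.

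For embryo size in intercaruncular tissue, leaving out each cow in turn gave 0 to 3 members called (3 without cow Pregnant_3956, 1 without cow Pregnant_9790), and the scan batch as a block gave 1. Over all probes the 547 calls became 35 to 1888 without single cows, 177 without the filter, 1888 with the scan batch, and 1071 or 872 with the slide as a fixed or random block. Fertility in intercaruncular tissue had 7 calls, against 41 with the scan batch, 0 with the fixed and 3 with the random slide block. The cause of these changes was not tested. No other tested probe of a member existed, so that alternative was not run. Depth bears on KYNU, HAAO, TDO2 and KMO, whose spots were near background, and on the kynureninase-like probe in cyclic cows.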
